A study of Mus musculus with 5 samples.

Results

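The GATA factors are 6 zinc finger transcription factors, Gata1 to Gata6, and their FOG cofactors are 2 proteins, Zfpm1 (FOG1) and Zfpm2 (FOG2). All probes whose name, synonym or RefSeq accession in the files was one of these 8 genes were taken. They were 9 of 28845 probes, 2 of them for Gata6, and the 8 genes were among 24888 genes and unnamed transcripts measured. The arrays compared cells of mouse embryoid bodies, aggregates of stem cells whose differentiation includes steps of heart formation. Each of 4 populations was isolated by 1 marker. Rex1, the product of Zfp42, marked the undifferentiated stem cells of day 0. Bra, the product of T, marked early mesodermal cells and Flk1, the product of Kdr, marked cardiac mesodermal cells, both of day 4.5. Nkx2.5, the product of Nkx2-5, marked the cardiac progenitor cells of day 7.5. The labels give no cell line, reporter, sorting method or number of cultures. Each of 5 pairs was hybridised once on a two-colour array without dye exchange, so no value has a spread between replicates and no test between populations was made.

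GATA proteins bind the core sequence GATA in DNA. Gata1, Gata2 and Gata3 are known from blood, with Gata1 driving red cell and megakaryocyte genes, Gata2 acting in stem and progenitor cells and Gata3 in T cells. Gata4, Gata5 and Gata6 are known from heart and endoderm, where Gata4 acts with Nkx2-5 and Tbx5 on genes of the contractile apparatus. FOG proteins do not read the GATA motif themselves: they bind the amino-terminal finger of a GATA factor and bring corepressors to it. Zfpm1 is the partner of Gata1 in red cells and megakaryocytes, and Zfpm2 is the partner of Gata4 in heart and gonad.

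A log2 ratio here is the Cy5 population over the Cy3 population on 1 array, so 1 is a fold of 2. The arrays link the populations in triangles, so each comparison was also read indirectly, through a population that both shared. The indirect reading of Nkx2.5 over Rex1 averages the route by way of Bra and that by way of Flk1. Flk1 and Bra shared no array, and their 2 readings run through Rex1 and then through Nkx2.5. A gene counted as higher or lower, and is said to pass, if the 2 readings had the same sign and a size of at least 1 and the brighter population stood above percentile 95 of the 96 negative control spots on 50% or more of its arrays. Across genes the gap between routes had an SD of 0.39 in the Bra triangle and 0.44 in the Flk1 triangle, from which the error of 1 array averages 0.24. Rex1 RNA was in Cy3 and Nkx2.5 RNA in Cy5 on each of their 3 arrays, so a dye effect does not cancel in the comparison of those 2. In Nkx2.5 over Rex1, a dye effect that is equal on all arrays enters the direct reading once and the indirect reading doubled. In the other comparisons made on 1 array it enters the direct reading and cancels in the indirect reading. For Flk1 over Bra it cancels in both readings. The gap between the routes of a triangle then contains it for each gene, together with the errors of the arrays. Between 77.6% and 95.2% of probes stood above the negative control threshold in each of the 10 channels. Of the 4 sort markers, Zfp42 passed, lower in each later population than in Rex1, and T, Kdr and Nkx2-5 passed in no comparison, with Nkx2-5 at 0.53 and 0.91 in Nkx2.5 over Rex1.

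Of the 8 genes, 1 passed in 1 comparison: Zfpm1 was higher in Nkx2.5 than in Rex1 cells, against 2.43% of all genes called higher there. None was lower in that comparison, where 0.699% of all genes were called lower. The other comparisons called 0 of the 8 in either direction. Their shares over all genes were 1.16% higher and 0.221% lower in Bra over Rex1, and 0.687% higher and 0.261% lower in Flk1 over Rex1. They were 0.277% higher and 0.0603% lower in Nkx2.5 over Bra, 0.297% higher and 0.0844% lower in Nkx2.5 over Flk1, and 0.0201% higher and 0.00402% lower in Flk1 over Bra. With shares this small, 0 of 8 is near the background of all genes. Of the 40 log2 ratios of the 8 genes on the 5 arrays, 37 were under 0.5 in size, against 87.0% of those of all genes. The 3 above 0.5 were all of Zfpm1.

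**Figure D1:**
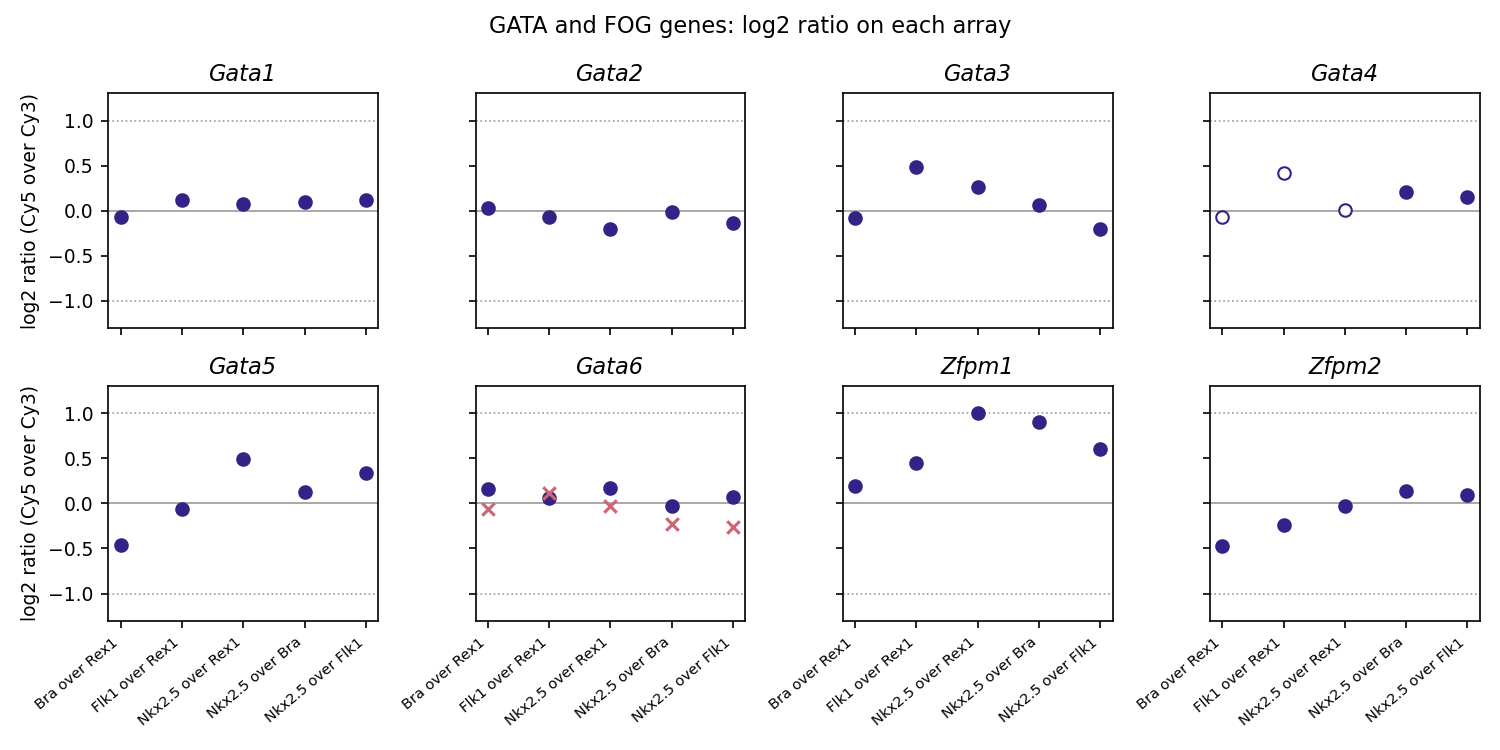
Log2 ratio of each gene on each of the 5 arrays, with the array on the x axis and the ratio of the Cy5 over the Cy3 population on the y axis. Filled points are spots above the negative control threshold in the brighter channel, open points are spots below it in both channels, crosses are the dimmer Gata6 probe, and dotted lines mark a fold of 2. Zfpm1 lies above 0 on all 5 arrays and reaches the dotted line on Nkx2.5 over Rex1, while the other 7 genes stay within 0.5 of 0.

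Zfpm1, the FOG protein of the red cell and megakaryocyte lineages, was higher in the Nkx2.5 cells than in the other population on each of the 3 arrays that carried them. Its log2 ratios were 0.19 in Bra over Rex1, 0.45 in Flk1 over Rex1, 1.0006 in Nkx2.5 over Rex1, 0.90 in Nkx2.5 over Bra and 0.60 in Nkx2.5 over Flk1. Relative to the median probe of the same channel, its net signal was 1.56, 1.59 and 1.75 in the 3 Rex1 channels, 1.66 and 1.52 in the 2 Bra channels, 2.04 and 2.19 in the 2 Flk1 channels, and 3.19, 2.47 and 2.85 in the 3 Nkx2.5 channels. The 3 Nkx2.5 values lay above those of the other populations, and the Bra and Rex1 values overlapped. These channels are repeated readings of shared RNA and not replicates. Nkx2.5 was always in Cy5 and Rex1 always in Cy3, so dye and population cannot be told apart here. The share of all genes with such a separation was not counted. Bra and Flk1 were each read once in Cy5 and once in Cy3, with the Cy5 value given first. RNA of sorted bulk cells was measured, so more cells with Zfpm1 RNA and more of it in each cell cannot be told apart.

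The second readings of Zfpm1 lay close to the first. They were 1.07 in Nkx2.5 over Rex1, 0.81 in Nkx2.5 over Bra, 0.55 in Nkx2.5 over Flk1, 0.40 in Flk1 over Rex1 and 0.10 in Bra over Rex1. Flk1 over Bra read 0.26 and 0.30. The routes closed within 0.09 through Bra and 0.05 through Flk1, both below the SD over all genes. Each gap also carries the errors of its arrays, 0.24 on average for 1 array, so it does not fix the size of a dye effect. The part of dye in the Zfpm1 values was not tested. The call in Nkx2.5 over Rex1 rests on a first reading just above the threshold of 1. That call is lost under 5 of the other settings tried, where the first reading was between 0.41 and 0.96. Under all 9 settings that changed the log2 ratios both readings stayed above 0, with the lowest at 0.41 and 0.51 where no background was subtracted. When all 5 arrays were combined into 1 level per population against the mean of the 4, Zfpm1 stood at -0.41 in Rex1, -0.25 in Bra, 0.03 in Flk1 and 0.63 in Nkx2.5. The span of 1.04 is a fold of 2.05 and 6.10 times its error, and it is wider than that of 94.7% of all genes. The step between Nkx2.5 and Flk1, 0.59 with an error of 0.19, was the one of the 24 steps between neighbouring populations of the 8 genes that exceeded 2 errors. The step between Flk1 and Bra, 0.28 with an error of 0.24, and that between Bra and Rex1, 0.16 with an error of 0.19, did not.

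**Figure D2:**
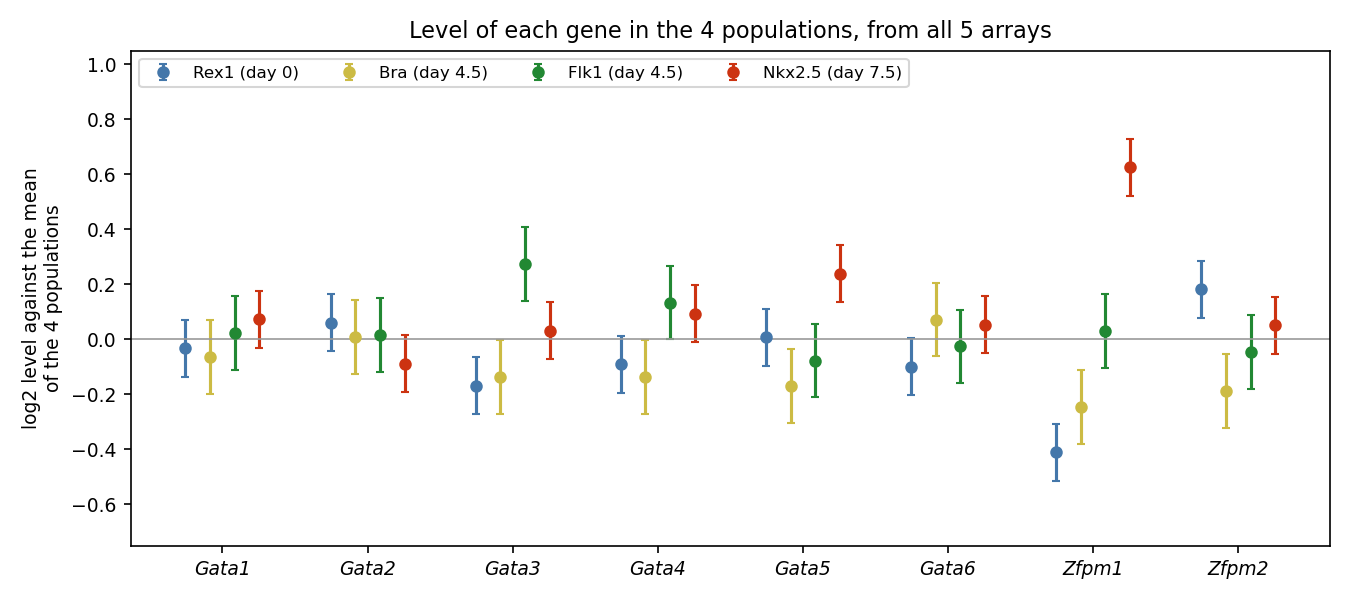
Level of each gene in the 4 populations, on the log2 scale against the mean of the 4, fitted over all 5 arrays by least squares. Points are fitted levels and bars are 1 error derived from the average error of 1 array, not a spread between replicates. Zfpm1 spans 1.04 between Rex1 and Nkx2.5, and the spans of the other 7 genes lie between 0.14 and 0.44.

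The 250 bases before the start of Zfpm1 in RefSeq, build GRCm38.p6, plus strand, chr8:122281891-122282140, are shown because it is the one gene of the 8 that passed. They were searched for 4 forms of the GATA motif, namely AGATAA or AGATAG and also TGATAA or TGATAG, on both strands, where capitals would mark a match. At a given position of a strand at most 1 of the 4 can match.
Zfpm1: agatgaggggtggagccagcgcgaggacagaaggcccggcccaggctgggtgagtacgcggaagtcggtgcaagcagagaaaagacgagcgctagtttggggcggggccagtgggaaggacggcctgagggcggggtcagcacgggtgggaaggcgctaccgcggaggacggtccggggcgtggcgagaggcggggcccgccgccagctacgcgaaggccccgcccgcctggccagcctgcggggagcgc
This window holds none of the 4 forms, and 73.2% of its bases are G or C. The windows of Gata1, Gata2, Gata3 and Gata5 hold none either, so 0 of the 5 genes with a window had a match, against 29.7% of 27025 genes. Gata4, Gata6 and Zfpm2 were not searched.

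Zfpm2, the FOG protein that partners Gata4 in the heart, passed in no comparison. Its log2 ratios were -0.47 in Bra over Rex1, -0.23 in Flk1 over Rex1, -0.03 in Nkx2.5 over Rex1, 0.14 in Nkx2.5 over Bra and 0.09 in Nkx2.5 over Flk1. The probe was dim, brighter than 21.9% of genes, but above the negative control threshold in all 10 channels. Its order of levels was Rex1, Nkx2.5, Flk1 and Bra, high to low, over a span of 0.37. No step between neighbours in that order exceeded 2 errors, and the span itself was 1.95 times its error. That error scales the average of 0.24 for 1 array, and genes as dim as Zfpm2 gave a larger one, 0.32. The 2 FOG genes thus had different orders, but a difference between them was not tested.

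Gata4, the cardiac and endodermal factor, could not be measured in 2 of the 4 populations. Its spot stood above the negative control threshold in 0 of 3 Rex1 channels, 0 of 2 Bra channels, 1 of 2 Flk1 channels and 2 of 3 Nkx2.5 channels. Relative to that threshold, its net signal was 0.19, 0.19 and 0 in the Rex1 channels, 0.35 and 0.78 in the Bra channels, 0.77 and 1.08 in the Flk1 channels, and 0, 1.25 and 1.61 in the Nkx2.5 channels. The channels above it were thus confined to the 2 arrays that paired Nkx2.5 with Bra or Flk1, so detection followed the array as well as the population. On Nkx2.5 over Rex1 the net signal was 0 in both channels. There 47 of the spot's 76 pixels in Cy5, and 42 in Cy3, were below background. The files mark the spot Bad on all 3 arrays with Rex1, and Gata4 is not listed in the authors' deposited log2 table.

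The log2 ratios of Gata4 were -0.07 in Bra over Rex1, 0.42 in Flk1 over Rex1, 0.01 in Nkx2.5 over Rex1, 0.21 in Nkx2.5 over Bra and 0.15 in Nkx2.5 over Flk1. The 3 ratios with Rex1 compare spots that were below the threshold in both channels, so they carry no measured difference. In Nkx2.5 over Bra, where only the Nkx2.5 channel was above the threshold, the 2 readings were 0.21 and 0.08. No lower bound on a fold against Rex1 or Bra could be given. The probe was brighter than 2.32% of genes, and the route through Flk1 failed to close by 0.56. A level of Gata4 in the Rex1 and Bra cells, and with it any change of the size seen for Zfpm1, was not detectable with this probe.

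**Figure D3:**
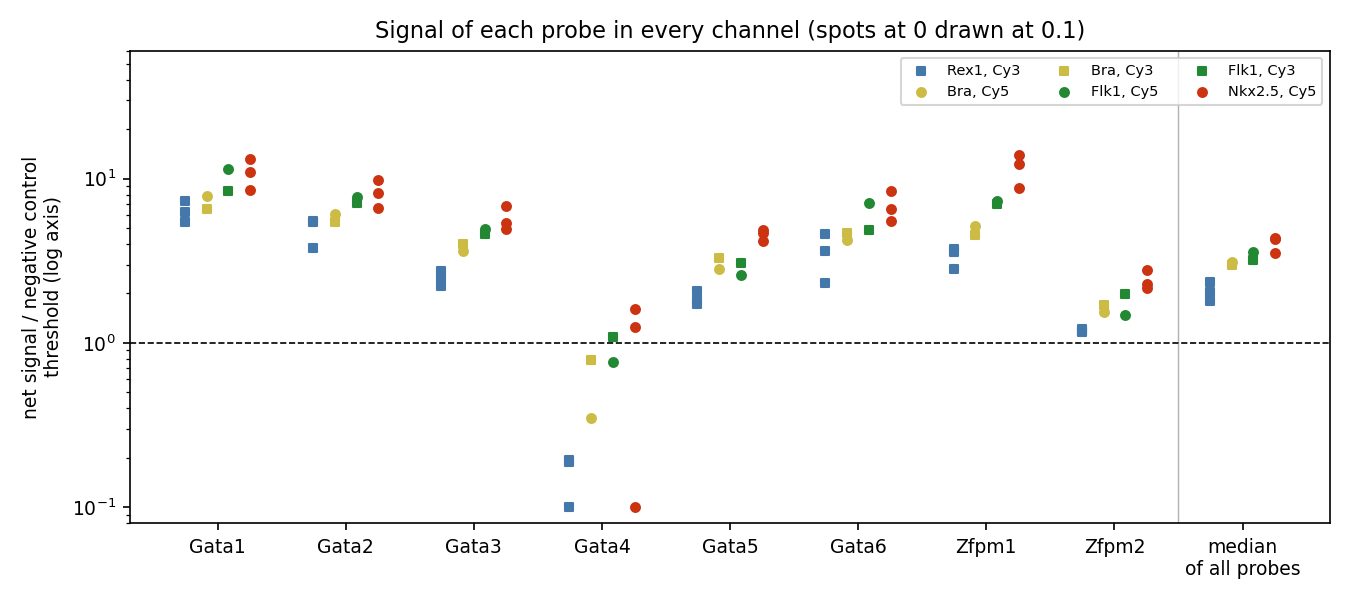
Net signal of each gene's probe divided by the negative control threshold of the same array and channel, on a log axis, with 1 point for each of the 10 channels and the median of all probes at the right. Populations run left to right by stage, squares are Cy3 and circles Cy5, spots at 0 are drawn at 0.1, and some points overlap. The values follow array and dye, as the median of all probes shows, so populations are compared by the ratios and not here: Gata4 lies under or near the dashed line at 1 and the other 7 genes lie above it in all 10 channels.

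Gata5, known from endocardium and endoderm, had readings that disagreed. Its log2 ratios were -0.46 in Bra over Rex1, -0.07 in Flk1 over Rex1, 0.49 in Nkx2.5 over Rex1, 0.13 in Nkx2.5 over Bra and 0.33 in Nkx2.5 over Flk1. The second readings were 0.36 in Bra over Rex1 and -0.03 in Nkx2.5 over Rex1, both of the opposite sign to the first. The triangle through Bra failed to close by 0.82, against the SD of 0.39 over all genes. Nkx2.5 over Flk1 read above 0 both times, at 0.33 and 0.55, as did Nkx2.5 over Bra at 0.13 and 0.95. The order of levels was Nkx2.5, Rex1, Flk1 and Bra, high to low, with no step over 2 errors.

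Gata6, the factor of primitive and definitive endoderm and of the early heart, was read by 2 named probes. The brighter gave 0.16 in Bra over Rex1, 0.06 in Flk1 over Rex1, 0.17 in Nkx2.5 over Rex1, -0.03 in Nkx2.5 over Bra and 0.07 in Nkx2.5 over Flk1. Its routes closed within 0.05 in both triangles. The dimmer gave -0.06, 0.11, -0.03, -0.23 and -0.26 on the same arrays in the same order. The probes had opposite signs on 3 arrays, and both stayed within 0.3 of 0 on all 5. By the brighter probe the levels spanned 0.17, which is 0.907 times the error, so the order Bra, Nkx2.5, Flk1 and Rex1 is not resolved.

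Gata1, the red cell factor, had the brightest probe of the 8, above that of 93.0% of genes. Its log2 ratios were -0.07 in Bra over Rex1, 0.12 in Flk1 over Rex1, 0.08 in Nkx2.5 over Rex1, 0.10 in Nkx2.5 over Bra and 0.11 in Nkx2.5 over Flk1. Relative to the median probe of its channel, the net signal was 3.04, 3.13 and 3.06 in the Rex1 channels, 2.54 and 2.21 in the Bra channels, 3.17 and 2.65 in the Flk1 channels, and 3.03, 2.39 and 2.54 in the Nkx2.5 channels. The Rex1 channels lay within the range of the Flk1 channels. They lay above all 3 Nkx2.5 channels, but close only to the one at 3.03. The Nkx2.5 channels overlapped with the lower Bra channels. These channels too are repeated readings of shared RNA and not replicates, with Rex1 always in Cy3 and Nkx2.5 always in Cy5. The levels fitted from the ratios spanned 0.14, the narrowest span of the 8 genes and 0.721 times its error, so their order, Nkx2.5, Flk1, Rex1 and Bra, is not resolved.

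Gata2, the factor of blood stem and progenitor cells, gave 0.04 in Bra over Rex1, -0.07 in Flk1 over Rex1, -0.21 in Nkx2.5 over Rex1, -0.01 in Nkx2.5 over Bra and -0.14 in Nkx2.5 over Flk1. Its second reading in Nkx2.5 over Rex1 was -0.09. The levels spanned 0.15, wider than in 15.3% of genes, and their order, Rex1, Flk1, Bra and Nkx2.5, is not resolved.

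Gata3, known from T cells and trophoblast, stood highest in the Flk1 cells. Its log2 ratios were -0.08 in Bra over Rex1, 0.48 in Flk1 over Rex1, 0.27 in Nkx2.5 over Rex1, 0.06 in Nkx2.5 over Bra and -0.20 in Nkx2.5 over Flk1. The 2 readings of Flk1 over Rex1 were 0.48 and 0.47, and those of Nkx2.5 over Flk1 were -0.20 and -0.22. Both pairs differ by the same gap of the Flk1 triangle, 0.01, so they are 1 closure and not 2. The Bra triangle failed to close by -0.28. There Bra over Rex1 read -0.08 and 0.21, and Nkx2.5 over Bra read 0.06 and 0.34. Flk1 over Bra read 0.56 and 0.26. The levels were -0.17 in Rex1, -0.14 in Bra, 0.27 in Flk1 and 0.03 in Nkx2.5, and the span of 0.44 was 2.33 times its error. No reading reached a fold of 2, and no step between neighbours exceeded 2 errors.

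The genes with which these factors work were read from 11 further lists, including the 4 sort markers. Of 9 other genes with a GATA-type zinc finger, 7 were on the array, among them Trps1 and Gatad2a, and none passed in any comparison. Of 9 corepressors and partners bound by FOG proteins, 8 were measured and 1 passed. That was Ctbp1, a corepressor that FOG proteins bind directly, at 1.54 and 1.003 in Flk1 over Rex1. It was not particular to Flk1, as Ctbp1 read 0.97 and 1.13 in Nkx2.5 over Rex1 and 0.67 and 0.88 in Bra over Rex1. Of 13 cardiac partners of Gata4, 11 were measured and 1 passed, the cardiac progenitor factor Isl1, at 1.06 and 1.45 in Nkx2.5 over Rex1. Of 10 blood partners of Gata1 and Gata2, 1 passed: Lmo2, the bridging protein of the Gata1 and Tal1 complex, at 1.59 and 1.56 in Flk1 over Rex1. Lmo2 also read above 0 in Nkx2.5 over Rex1, at 0.98 and 0.84, and in Bra over Rex1, at 0.27 and 0.57.

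Several genes that GATA factors are known to regulate passed. Of 12 cardiac targets of Gata4, 4 rose in Nkx2.5 over Rex1, with list medians of 0.64 and 0.45 for the first and second readings against 0.01 for both over all genes. They were Myl7, the atrial myosin regulatory light chain, at 2.67 and 2.39, with Rex1 above the negative controls on 1 of 3 arrays, the cardiac troponin T gene Tnnt2 at 2.46 and 2.51, with Rex1 above them on 2 of 3, the myosin light chain gene Myl3 at 1.49 and 2.03, and the troponin C gene Tnnc1 at 1.35 and 1.21. The other 8 passed in no comparison. Among them Nppa, the atrial natriuretic peptide gene, which lies outside the rule for named genes and was picked with its values known, could not pass, since its probe was above the negative controls on 1 of 3 Rex1 arrays, 1 of 3 Nkx2.5 arrays and no Bra or Flk1 array. The rest of those 8 lie outside that rule too. In Nkx2.5 over Rex1, Actn2 read 0.62 and 0.64 and Actc1 0.55 and 0.46. Nppb read 0.66 and 0.18 and Tnni3 0.29 and 0.43, both with Rex1 above the negative controls on 2 of 3 arrays. Slc8a1 read 0.10 and 0.05, Adora1 0.02 and -0.17, and Myh6 -0.22 and -0.29. Of the 12, 3 rose in Nkx2.5 over Bra and 4 in Nkx2.5 over Flk1. In Bra over Rex1, Flk1 over Rex1 and Flk1 over Bra none passed.

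Of 11 red cell targets of Gata1, 10 were measured and 4 rose in Nkx2.5 over Rex1, all of them globin genes, with list medians of 0.96 and 0.84. The embryonic globin gene Hbb-y read 2.57 and 2.19, with Rex1 above the negative controls on 1 of 3 arrays. Hbb-b2 read 2.12 and 2.60, and Hbb-bh1 1.27 and 1.92. Some globin genes, such as the adult duplicates, are near-identical copies, and a probe for one may read the other. The alpha globin gene Hba-a1 read 1.26 and 1.06. There were 4 that passed in Nkx2.5 over Bra and 2 in Nkx2.5 over Flk1, and none passed between the other populations. In Nkx2.5 over Rex1 the other 6 measured genes did not pass. Hba-x read 0.86 and 0.63, Alas2 0.94 and 1.24, and Nfe2 0.99 and 0.19. Slc4a1 read 0.17 and 0.30, Epb42 0.05 and 0.12, and Epor -0.21 and -0.17. The 4 globin genes thus rose in the population in which Zfpm1 passed, while Gata1 read 0.08 and 0.13 there. A link between them was not tested.

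**Figure D4:**
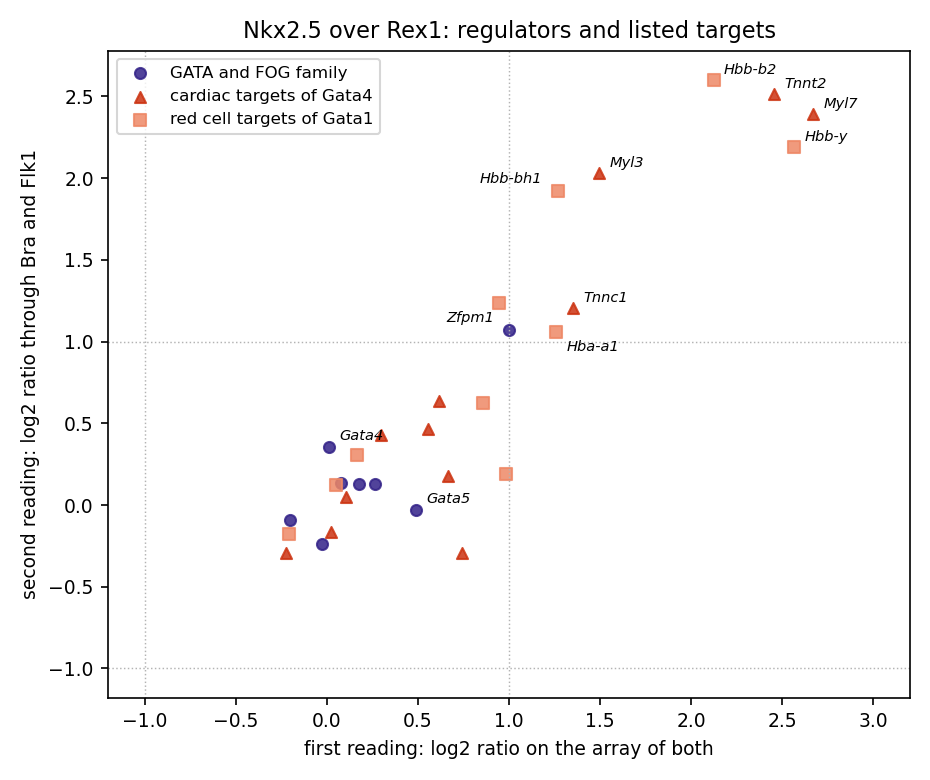
First against second reading of Nkx2.5 over Rex1, both as log2 ratios, for the 8 GATA and FOG genes, the 12 cardiac targets of Gata4 and the 10 red cell targets of Gata1, with dotted lines at a fold of 2. The 4 cardiac and 4 red cell targets that passed lie at the upper right, Zfpm1 lies on the threshold of the first reading, and the other 7 GATA and FOG genes lie near 0.

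Windows of Hbb-y, Myl7 and Tnnt2 are shown. They were picked from the passing targets for their large readings and because they hold the motif that GATA proteins read. Each is a stretch of 60 bases from the 250 before the gene's start in RefSeq, build GRCm38.p6, with the match in capitals. Hbb-y is from chr7:103853337-103853396, minus strand. Myl7 is from chr11:5898792-5898851, minus strand. Tnnt2 is from chr1:135836141-135836200, plus strand.
Hbb-y: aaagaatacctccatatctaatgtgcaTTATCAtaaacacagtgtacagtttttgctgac
Myl7: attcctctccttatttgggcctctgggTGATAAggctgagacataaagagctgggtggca
Tnnt2: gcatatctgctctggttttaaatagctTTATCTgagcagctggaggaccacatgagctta
In Hbb-y and Tnnt2 the match is on the other strand. The match begins 162 bases before the start in Hbb-y, 42 in Myl7 and 166 in Tnnt2. Tnnt2 has a second start in RefSeq, whose window holds no match. Of the 11 red cell targets 6 had a window to search, Hbb-b2 and Hbb-bh1 not among them, and all 6 held at least 1 match. Of the 12 cardiac targets all had a window and 6 held a match, against 29.7% of all genes. Myl3 and Tnnc1, which also rose, have none. The cardiac targets Nppa, Nppb, Myh6 and Slc8a1 hold a match and passed in no comparison. The same holds for the red cell targets Hba-x, Alas2, Epor and Epb42. These genes that did not pass lie outside the rule for named genes. A match is a run of letters and not a measured binding site. The lists were made of genes known as GATA targets, so their shares with a match are not a test of GATA action here.

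Markers of other cell types moved in the same comparison as Zfpm1. Of 18 endoderm genes that accompany Gata4 and Gata6, 6 rose in Nkx2.5 over Rex1, with list medians of 0.30 and 0.64. Among them were Col4a1, a basement membrane collagen gene, at 1.86 and 2.99, the transthyretin gene Ttr at 1.98 and 1.83, both with Rex1 above the negative controls on 2 of 3 arrays, and Spink1 at 2.37 and 1.48. Afp, the fetal liver and yolk sac protein gene, also passed, but no size is given because Rex1 was above the negative controls on 0 of 3 arrays. The endoderm list had 4 genes higher in Nkx2.5 over Bra and 2 in Nkx2.5 over Flk1, and in Bra over Rex1 it had 2, Sox17 at 1.24 and 1.19 and Cer1 at 1.21 and 1.21. Sox17 also passed in Nkx2.5 over Rex1, at 1.34 and 1.82, while Cer1 read 0.24 and 0.14 there. Of 14 endothelial genes, Sox18 and Egfl7 rose in Flk1 over Rex1, Sox18 rose in Flk1 over Bra and fell in Nkx2.5 over Flk1, and none passed in Nkx2.5 over Rex1. The 10 trophoblast genes and the 8 epithelial and neural genes that accompany Gata2 and Gata3 passed in no comparison. The part of red cells or endoderm cells in the Zfpm1 values was not tested.

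The named genes most like Zfpm1 over the 5 log2 ratios were Cnn2, a calponin of actin filaments, at a Euclidean distance of 0.14, then Ppic at 0.34 and Olfr716 at 0.38, out of 13940 named genes. Cnn2 gave 0.14 in Bra over Rex1, 0.39 in Flk1 over Rex1, 0.91 in Nkx2.5 over Rex1, 0.84 in Nkx2.5 over Bra and 0.61 in Nkx2.5 over Flk1. On Nkx2.5 over Rex1 it thus stayed just under the fold of 2 that Zfpm1 just reached. The genes most like Gata4 were Lpl at 0.11, Fndc3a at 0.12 and Atp4b at 0.13, which says little, since 3 of the 5 Gata4 ratios come from spots below the negative controls. These are likenesses over 5 arrays that share RNA, in which many flat genes lie close together.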

How the data were processed

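Expression was measured on 5 two-colour oligonucleotide arrays of 30000 spots. Per the labels, RNA was amplified with amino allyl nucleotides and then dye-coupled. The labelled dyes give each ratio its direction, which is Cy5 over Cy3. The deposited scanner files hold, per the file headers, a median net signal and a background intensity for each channel, pixel counts and a median of the pixel ratios. The authors' deposited log2 table covers 28524 probes, and each array's column equalled the scanner log2 ratio shifted by 1 constant. The deposited ratio is 0 for spots marked Bad. The genome build is not given in the sources used here.

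Net signal and background were added, then background-corrected by normexp (offset 50) and loess-normalised array by array, controls having weight 0 (limma 3.58.1, R 4.3.3). Python 3.11.15 was used for the rest. Controls, blanks and 307 quality check spots did not enter. Probes were named through RefSeq names of GRCm38.p6, of which 8056 probes matched on accession, 5226 on symbol and 5063 on synonym, while 576 kept their file name and 9924 had no name. For a gene with several probes the brightest was used. Levels came from least squares over the 5 arrays, assuming equal, independent errors. No test was made: each pair was hybridised once, and the number of arrays limits the precision.

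The 8 genes, the lists and the rules were chosen with earlier results of these data known. Named from each list were at most 4 passing genes per comparison, by the smaller reading, and the 3 genes nearest to Zfpm1 and to Gata4. A listed gene is not reported here, and its list's counts, medians and figure leave it out. Alternatives covered background correction, normalisation, source of values, Bad spots, the probe for a gene, the filter on dim probes and the size rule.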

Additional observations from a re-analysis of the deposited data

Results flagged for a closer look

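A probe without a gene name in the files carries a description that reads GATA-6, and it lies outside the choice of probes by name, synonym or RefSeq accession. It stood above the negative control threshold in all 10 channels, which is why it is given here. Its log2 ratios were 0.80 in Bra over Rex1, 0.25 in Flk1 over Rex1, 0.10 in Nkx2.5 over Rex1, -0.02 in Nkx2.5 over Bra and -0.22 in Nkx2.5 over Flk1. The value of 0.80 was not repeated: the route from Rex1 to Bra by way of Nkx2.5 gave 0.12, the triangle failed to close by -0.68, and the median of the pixel ratios on the same array was 0.19. The named Gata6 probes gave 0.16 and -0.06 on Bra over Rex1.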

How the results depend on the processing

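Alternatives were recomputed under 12 settings, of which 1, the median of the pixel ratios, was added after the data were seen. No value reversed the direction of a call. The 1 gene higher in Nkx2.5 over Rex1, Zfpm1, became 0 without background subtraction, with net signal without normexp, with loess within each block, with the authors' deposited log2 table and with the median of the pixel ratios, where its first reading was between 0.41 and 0.96. With a fold of 1.5 in place of 2, the count in Nkx2.5 over Bra became 1, again Zfpm1, against 0. Every other count of the 8 genes stayed as reported under the settings run. Among single log2 ratios, leaving out background subtraction moved 12 of 40 by more than the error of 1 array and put 12 on the other side of 0, and no other setting moved more than 4. No paired analysis was possible because each pair of populations was hybridised once. The background in Cy3 was higher than the median net signal on each of the 5 arrays, at 8192 against 2520 on Nkx2.5 over Rex1, which limits dim probes such as Gata4 and Zfpm2.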

Other observations

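Zbtb32, known as a repressor of GATA, is read by 2 probes that disagree, and it was looked up after the other values were seen. One gave -0.87 in Bra over Rex1, -1.08 in Flk1 over Rex1, -0.58 in Nkx2.5 over Rex1, -0.39 in Nkx2.5 over Bra and -0.47 in Nkx2.5 over Flk1. The other gave 0.43, 0.16, -0.18, 0.09 and 0.04 on the same arrays in the same order. The direction thus depends on the probe on 4 of the 5 arrays.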
